A study of Mus musculus with 46 samples.

Results

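The genes described here are Npl and the core enzymes and transporter of sialic acid metabolism in mouse intestine: Npl, Renbp, Gne, Nans, Nanp, Cmas and Slc17a5. They were chosen by symbol, and Npl heads them because of earlier results in these same data. All 7 were found among the 45777 gene symbols of each count table. The bulk data were 45 RNA-seq libraries in 15 groups of 3, all from male C57BL/6J mice whose age the labels do not give. In the acute experiment the colon was taken 6 h after a single oral dose of 600 mg/kg metformin or imeglimin, or from controls. In the chronic experiment the drug was in the drinking water at 3 mg/mL for 4 weeks, and control, imeglimin and metformin groups were taken from proximal, middle and distal small intestine and from colon. A further single-cell sample came from colon after 12 weeks, and its title says control while its treatment label lists all treatments. Both drugs lower blood glucose; metformin belongs to the biguanides, and imeglimin carries a tetrahydrotriazine ring and is related to it in structure. The comparisons address where the intestine responds to both drugs and where it does not. The labels do not say whether the 3 libraries of a group are separate animals, so every p-value measures only the spread between these samples, which may be technical.

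Sialic acids are acidic sugars at the outer ends of glycan chains, and they are abundant on intestinal mucins and on the cell surface. Cells make N-acetylneuraminic acid from UDP-N-acetylglucosamine through Gne, Nans and Nanp, and Cmas then attaches it to CMP so that sialyltransferases can use it. When glycans are degraded in lysosomes, sialidases release the sugar and the transporter sialin, encoded by Slc17a5, carries it to the cytosol. There it is either activated again by Cmas or split by Npl, the N-acetylneuraminate lyase, into N-acetylmannosamine and pyruvate. Renbp, the N-acetylglucosamine epimerase, turns N-acetylmannosamine into N-acetylglucosamine and so links the breakdown to the amino sugar pool.

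Levels are in CPM, the read count of a gene relative to the total of its library after adjustment by the TMM factor, and are given as mean ± SD of 3 libraries unless values of single libraries are listed in the order of replicates 1, 2 and 3. Library totals ran from 31606797 to 47324301 counts, and no member was at 0 in any of the 45 libraries. The lowest Npl value, 0.443 CPM in acute colon, rested on 15 counts, and the highest, 278 CPM in middle small intestine, on 12151. Markers of Paneth cells, which belong to the small intestine, summed to between 1644 and 18611 CPM in the small intestinal libraries and to between 5.04 and 393 CPM in the colon libraries. The third chronic colon control stood apart: its pancreatic acinar markers summed to 17297 CPM, against 192 to 310 CPM in the other chronic colon libraries, so chronic colon results are given with and without it. Unless stated otherwise, adjusted p-values are from the edgeR quasi-likelihood test with Benjamini-Hochberg adjustment over all genes tested in a table, and a gene is said to rise or fall where this p was under 0.05. As Npl was chosen on these data, its bulk values are a description and carry no p-value.

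The promoters of the 3 members of the breakdown and recycling side, Npl, Renbp and Slc17a5, are shown because their transcripts differed most between drug and control groups in the small intestine. Each line holds the 250 bases before the RefSeq transcript start in GRCm38.p6, 5′ to 3′ on the gene's strand, and capitals mark the E-box CACGTG.
Npl, chr1:153549715-153549964, minus strand: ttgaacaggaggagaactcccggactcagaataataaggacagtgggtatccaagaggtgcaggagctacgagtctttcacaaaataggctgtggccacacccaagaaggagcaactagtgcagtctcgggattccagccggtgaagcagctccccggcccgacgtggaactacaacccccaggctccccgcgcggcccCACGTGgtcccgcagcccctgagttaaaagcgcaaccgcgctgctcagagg
Renbp, chrX:73930851-73931100, minus strand: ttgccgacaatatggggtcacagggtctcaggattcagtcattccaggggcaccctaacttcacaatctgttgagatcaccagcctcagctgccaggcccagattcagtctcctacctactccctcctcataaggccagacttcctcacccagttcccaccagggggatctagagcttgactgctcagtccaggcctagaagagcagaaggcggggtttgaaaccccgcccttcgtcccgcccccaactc
Slc17a5, chr9:78588046-78588295, minus strand: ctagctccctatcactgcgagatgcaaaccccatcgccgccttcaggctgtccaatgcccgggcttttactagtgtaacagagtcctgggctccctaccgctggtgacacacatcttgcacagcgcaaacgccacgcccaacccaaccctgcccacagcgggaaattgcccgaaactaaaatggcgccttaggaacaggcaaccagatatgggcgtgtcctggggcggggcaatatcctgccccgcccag
RefSeq windows of 300 bases, from 250 before to 50 after a start, were at hand for 5 of the 7 members, 1 each for Npl, Renbp, Cmas and Slc17a5 and 2 for Gne. They were searched on both strands for the CLEAR element TCACGTGA, the amino acid response element TGATGNAA, the antioxidant response element TGACNNNGC and the cAMP response element TGACGTCA. The core CACGTG of the first was added after the whole motif was found in none of these windows. CACGTG was found at position -51 of Npl and is present in 7.15% of the 32851 windows of the table. Cmas held TGACNNNGC at position -69, a motif found in 12.4% of windows. No window of Renbp, Slc17a5 or Gne held any of these letters, and the other motifs occur in 0.974% (TCACGTGA), 3.97% (TGATGNAA) and 1.79% (TGACGTCA) of windows. A match is a stretch of letters and not a measured binding site.

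Npl transcripts were higher in all 3 segments of the small intestine after 4 weeks of either drug, and they were near 1 CPM in every colon group. In proximal small intestine, Npl measured 13.0, 22.9 and 17.1 CPM in controls, 91.2, 180 and 145 CPM with imeglimin, and 228, 190 and 226 CPM with metformin. All 6 drug libraries lay above all 3 controls, by 3.60 ± 0.25 (SE) on the log2 scale with metformin, or 12.1-fold, and by 2.97 ± 0.25 with imeglimin, or 7.82-fold. The middle segment gave 20.8, 40.9 and 43.5 CPM of Npl in controls, 157, 228 and 194 CPM with imeglimin, and 249, 252 and 278 CPM with metformin. The drug libraries again lay above the controls, with log2 fold changes of 2.89 ± 0.26 for metformin (7.41-fold) and 2.46 ± 0.25 for imeglimin (5.50-fold).

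In distal small intestine the level of Npl was lower in every group, and imeglimin gave the higher value of the 2 drugs. Controls measured 6.65, 7.82 and 7.04 CPM, imeglimin 63.3, 59.7 and 48.4 CPM, and metformin 32.6, 33.0 and 35.4 CPM. The log2 fold change was 2.23 ± 0.13 with metformin (4.70-fold) and 2.99 ± 0.13 with imeglimin (7.97-fold), and the 3 groups did not overlap. As a description, Npl ranked 2 of 10656 genes by fold with metformin in proximal small intestine, among genes averaging 5 CPM or more in either group. It ranked 8 of 11048 in middle and 24 of 11574 in distal small intestine with metformin. With imeglimin it ranked 5 of 10696, 8 of 11031 and 11 of 11681.

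The colon showed no such difference in Npl. In chronic colon, Npl measured 1.03, 0.837 and 0.911 CPM in controls, 0.898, 0.851 and 1.21 CPM with imeglimin, and 1.27, 0.749 and 1.05 CPM with metformin. In acute colon it measured 0.998, 1.35 and 0.604 CPM in controls, 0.802, 0.856 and 0.818 CPM with imeglimin, and 0.961, 0.443 and 0.777 CPM with metformin. Drug and control libraries overlapped in both colon experiments, and the log2 fold changes were 0.14 ± 0.29 and 0.09 ± 0.29 for metformin and imeglimin in chronic colon and -0.43 ± 0.38 and -0.25 ± 0.38 in acute colon. Over 11 alternative settings, among them leaving out the third control, the 2 chronic colon values ran from -0.04 to 0.33 and from -0.09 to 0.20.

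**Figure D1:**
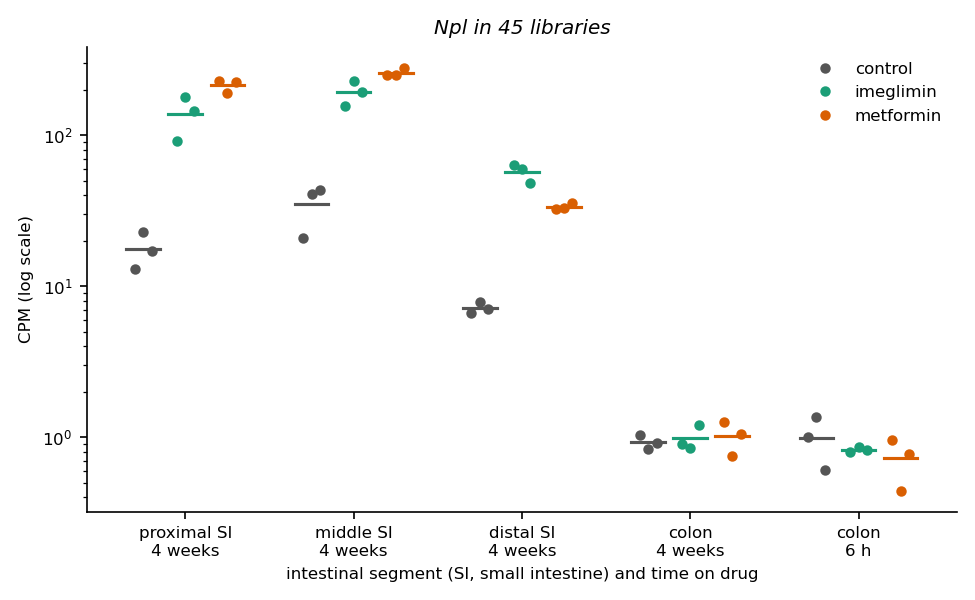
Npl in each of the 45 bulk libraries, in CPM on a log axis, by tissue and group (points are libraries, bars are group means). The small intestinal drug libraries lie between 32.6 and 278 CPM, each above the controls of its own segment, and all colon libraries lie at or below 1.35 CPM.

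Among untreated mice the order of Npl along the gut was middle, proximal and distal small intestine and then colon. The control means were 35.1 ± 12.4, 17.7 ± 4.97, 7.17 ± 0.595 and 0.926 ± 0.0976 CPM (SD, n = 3 each). Middle and proximal controls overlapped, with a log2 difference of 0.88 ± 0.23 (middle minus proximal), while distal and colon controls each lay below the segment before them. The log2 difference was -2.48 ± 0.24 for distal minus middle and -3.15 ± 0.29 for colon minus distal, or -3.14 ± 0.35 without the third colon control. The tables of the segments were counted separately, which holds for every level set across them here. With metformin the Npl level of middle small intestine (260 ± 15.9 CPM) stood above that of proximal (215 ± 21.3 CPM) without overlap. Metformin in distal small intestine (33.7 ± 1.47 CPM) came to the level of the untreated middle segment, whose libraries overlapped it. Over all 15 groups the order of mean CPM began with middle and proximal small intestine with metformin, then middle (193 ± 35.6) and proximal (139 ± 44.8) with imeglimin and distal with imeglimin (57.2 ± 7.74). Untreated middle, distal with metformin, untreated proximal and untreated distal small intestine followed, and the 6 colon groups had means between 0.727 and 1.02 CPM. Neighbours in this order overlapped from proximal metformin to proximal imeglimin, between untreated middle and distal metformin, and throughout the colon.

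The size of the Npl difference between drug and control varied by segment. For the metformin log2 fold change, middle less proximal was -0.73 ± 0.31 and distal less middle was -0.64 ± 0.32. For imeglimin the same differences were -0.50 ± 0.31 and 0.55 ± 0.32. Colon less distal was -2.12 ± 0.42 for metformin and -2.92 ± 0.42 for imeglimin. These differences of log2 fold changes carry no test.

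Renbp, whose enzyme acts next after Npl in breakdown, rose with metformin in distal small intestine and passed in no other tissue with edgeR. In distal small intestine it measured 3.43, 3.01 and 4.33 CPM in controls, 13.2, 15.9 and 10.4 CPM with imeglimin, and 13.0, 21.8 and 33.9 CPM with metformin. Every drug library lay above every control, and the metformin libraries were the most spread. The metformin log2 fold change was 2.67 ± 0.35 (adjusted p = 0.0204), and that of imeglimin, 1.87 ± 0.34, did not pass (adjusted p = 0.174). DESeq2 called the imeglimin difference (DESeq2 adjusted p = 2.42e-05). The metformin call was lost with the replicate number as a block (adjusted p = 0.0800) and without any 1 of the 3 controls or without metformin 2 or 3, with adjusted p up to 0.0920.

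In the other segments Renbp was low in all groups. In the middle segment it measured 2.15, 1.76 and 1.87 CPM in controls and 2.71, 6.62 and 6.15 CPM with metformin. These groups did not overlap, but the log2 fold change of 1.42 ± 0.31 did not pass (adjusted p = 0.110), though DESeq2 called it. In proximal small intestine it lay between 1.18 and 3.15 CPM in all 9 libraries, and in colon between 2.12 and 4.28 CPM in all 18. The drug effects on Renbp in distal small intestine and colon differed when tested as interaction terms. Chronic colon minus distal small intestine was -2.66 ± 0.43 for the metformin log2 fold change (adjusted p = 0.000622) and -2.35 ± 0.43 for that of imeglimin (adjusted p = 0.00328). Without the third chronic colon control these p-values were 0.00138 and 0.00825, and with replicate 2 or 3 of every group left out they reached 0.105 and 0.101. The labels do not say whether the segments came from the same mice, and the fit treats the libraries as independent. With the replicate number as a block within each table the p-values were 0.00566 and 0.0140, and with treatment and number as a block across the tables, added after the data were seen, 0.000256 and 0.000984.

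Slc17a5, the lysosomal exporter of free sialic acid, rose with metformin in the proximal and middle segments and fell in chronic colon. In proximal small intestine it measured 21.2, 16.1 and 24.7 CPM in controls and 36.2, 32.6 and 35.9 CPM with metformin, a log2 fold change of 0.76 ± 0.16 (adjusted p = 0.0284). In middle small intestine it measured 29.9 to 32.7 CPM in the 3 controls and 58.0, 55.6 and 64.0 CPM with metformin, a log2 fold change of 0.94 ± 0.12 (adjusted p = 0.0150). Metformin and control libraries did not overlap in either segment. With a replicate block the adjusted p-values were 0.0554 and 0.0522. Leaving out single libraries also ended both calls: control 1, control 2 or any metformin library in proximal (up to 0.102), and control 1, control 2 or metformin 1 in middle small intestine (up to 0.0981).

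With imeglimin Slc17a5 passed at no chronic site with edgeR. The middle imeglimin libraries at 43.7, 60.6 and 49.9 CPM lay above the controls, but the log2 fold change of 0.73 ± 0.12 did not pass (adjusted p = 0.0682). DESeq2 called this difference (DESeq2 adjusted p = 1.46e-05). In distal small intestine the metformin libraries (26.2, 27.2 and 30.1 CPM) lay within the range of the controls (20.4, 30.1 and 31.4 CPM), with a log2 fold change of 0.03 ± 0.18 (adjusted p = 0.968). In chronic colon Slc17a5 measured 37.7, 33.6 and 33.0 CPM in controls and 27.4, 24.6 and 28.2 CPM with metformin. It fell by 0.38 ± 0.11 on the log2 scale (adjusted p = 0.0376), and the call was lost with a replicate block (0.0634), without the third control (0.0699) and without each of the other 5 libraries compared.

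The metformin effect on Slc17a5 differed between chronic colon and middle small intestine. Colon minus middle was -1.32 ± 0.22 (adjusted p = 0.000959), a contrast added after the data were seen. It was -1.36 without the third colon control (adjusted p = 0.00248), and its adjusted p was 0.0726 without replicate 3 of every group. With the replicate block within tables it was 0.00816, and with the block across them 0.00105. In acute colon Slc17a5 passed with imeglimin: controls measured 44.2, 35.3 and 40.5 CPM and imeglimin 25.9, 28.3 and 26.3 CPM. With imeglimin Slc17a5 there fell by 0.58 ± 0.11 (adjusted p = 0.00310), a call kept in all 11 alternative settings. Metformin averaged 33.9 CPM there, a change in the same direction that did not pass (-0.24 ± 0.11, adjusted p = 0.159). Imeglimin minus metformin did not pass either (-0.34 ± 0.11, adjusted p = 0.191).

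**Figure D2:**
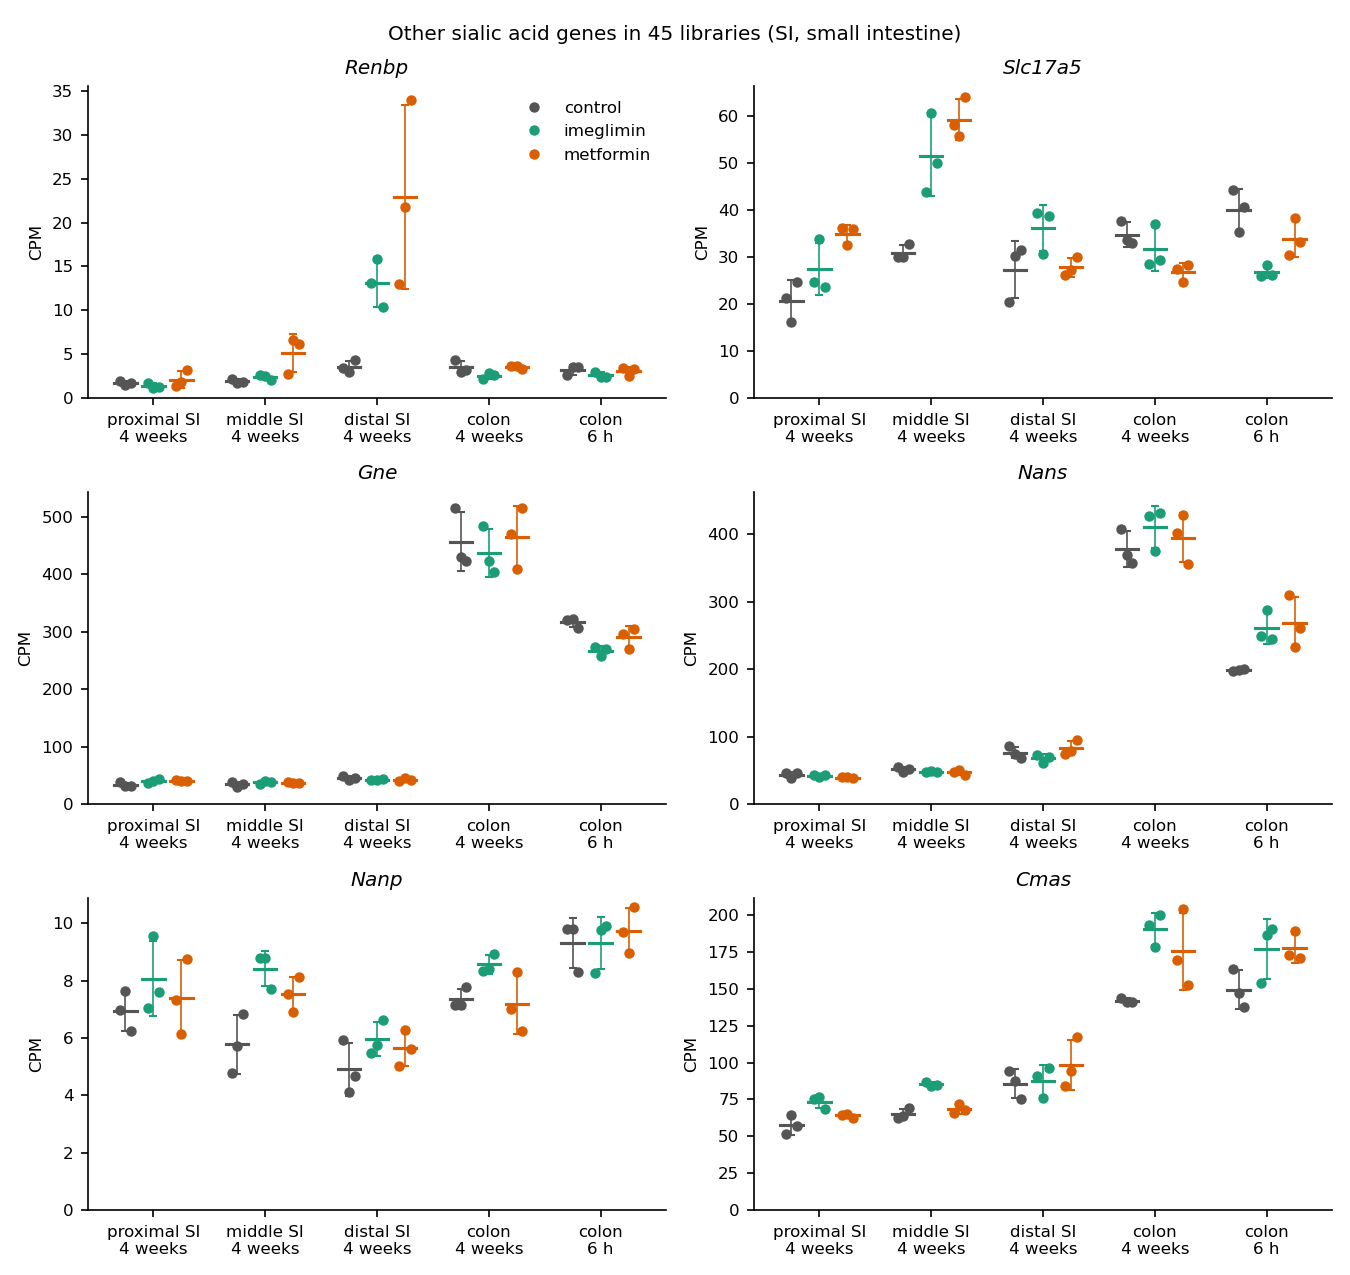
Renbp, Slc17a5, Gne, Nans, Nanp and Cmas in each bulk library, in CPM, by tissue and group (points are libraries, bars are mean ± SD of 3). Renbp stands out in distal small intestine with drug, at 10.4 to 33.9 CPM, Slc17a5 in middle small intestine with drug, and Gne, Nans and Cmas in colon of every group.

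Of the 4 genes of synthesis and activation, Gne, Nans and Cmas had larger log2 differences between untreated colon and distal small intestine than between drug and control in any tissue, and Nanp did not. These sizes were not tested against each other. Gne, the epimerase and kinase that starts the synthesis and sets its rate, measured 49.4, 42.5 and 45.1 CPM in distal small intestinal controls and 515, 430 and 423 CPM in chronic colon controls. Gne was higher in colon by 3.11 ± 0.11 on the log2 scale (adjusted p = 1.37e-18), or 3.16 without the third colon control. Nans, the sialic acid phosphate synthase, measured 85.4, 74.2 and 69.0 CPM against 408, 369 and 357 CPM, a log2 difference of 2.10 ± 0.10 (adjusted p = 5.43e-16), or 2.14 without that control. Cmas, which makes CMP-sialic acid in the nucleus, was higher in colon by 0.51 ± 0.11 (adjusted p = 0.000251), or 0.52 without that control (adjusted p = 0.00105). Nanp, the phosphatase after Nans, did not pass (0.37, adjusted p = 0.0549), and neither did Renbp (-0.25, adjusted p = 0.527) or Slc17a5 (0.13, adjusted p = 0.524). With 3 of the 6 tested members called, this compares with 45% of the 20053 genes.

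Between the small intestinal segments of untreated mice, Nans passed after adjustment and the other members did not. It rose from 54.5, 47.3 and 52.3 CPM in middle to the distal values above, by 0.38 ± 0.10 (adjusted p = 0.00982), a call lost without replicate 1 or 2 of every group. Of all genes 9.97% passed in distal minus middle, and at an unadjusted p under 0.05 there were 5 of the 6 members and 4250 of 20053 genes. In middle minus proximal none of the 6 passed with edgeR, with 2 at an unadjusted p under 0.05 and 3717 of 20053 genes at that level, and 6.71% of genes passed after adjustment.

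Per kilobase of exon, which allows genes to be compared, Npl in untreated small intestine stood at 5.98 CPM per kb in proximal, 11.8 in middle and 2.42 in distal segments, and at 0.313 in chronic colon. With metformin these levels were 72.5, 87.7, 11.4 and 0.346 CPM per kb, and with imeglimin 46.9, 65.1, 19.3 and 0.333. In proximal controls this put Npl between Slc17a5 (5.70 CPM per kb) and Nans (9.47), and with metformin above Cmas (13.6), the next highest member there. In untreated chronic colon Nans (82.5) and Gne (71.7) were the highest of the 7 per kilobase and Npl the lowest.

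In acute colon both drugs raised Nans, and imeglimin also lowered Gne. Nans measured 198, 198 and 201 CPM in controls, 249, 288 and 245 CPM with imeglimin and 310, 233 and 262 CPM with metformin. No drug library overlapped the controls, and the log2 fold changes were 0.43 ± 0.11 for metformin (adjusted p = 0.0212) and 0.39 ± 0.11 for imeglimin (adjusted p = 0.0213). Both calls were kept with a replicate block (0.0447 and 0.0414) and lost without any 1 control, and also without metformin 1 and without imeglimin 2, respectively. About 29.6% of the exon bases of Nans overlap Trim14 on the opposite strand, and the sources used here do not state a strand setting for the counting, so reads of the 2 genes may not be told apart. Gne measured 321, 323 and 306 CPM in controls and 273, 257 and 269 CPM with imeglimin, and fell by 0.25 ± 0.08 (adjusted p = 0.0418). The Gne call was lost in 9 of 11 alternative settings, among them the replicate block (adjusted p = 0.0744).

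Cmas rose in chronic colon with imeglimin and passed in no other drug comparison with edgeR. It measured 144, 141 and 141 CPM in controls, 193, 178 and 200 CPM with imeglimin, and 170, 204 and 153 CPM with metformin, and neither drug group overlapped the controls. The imeglimin log2 fold change was 0.42 ± 0.10 (adjusted p = 0.0243, or 0.0390 with a replicate block), and that of metformin 0.31 (adjusted p = 0.0582). The imeglimin call was lost without any 1 control, at an adjusted p of 0.0778 without the third, and without imeglimin 1 or 3. Cmas in middle small intestine measured 62.5, 63.4 and 68.9 CPM in controls and 87.0, 84.2 and 84.6 CPM with imeglimin, which did not overlap. The log2 fold change of 0.39 ± 0.07 missed the threshold (adjusted p = 0.0777), though DESeq2 called it (DESeq2 adjusted p = 0.000259).

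Gne and Nanp showed no call with edgeR in the drug comparisons of the chronic experiment. Gne in proximal small intestine measured 37.7, 30.9 and 31.1 CPM in controls and 42.0, 39.8 and 40.2 CPM with metformin. These groups did not overlap, but their log2 difference of 0.29 did not pass (adjusted p = 0.0997), though DESeq2 called it. Nanp stayed between 4.11 and 10.6 CPM in all 45 libraries and passed in no comparison with edgeR. Its largest drug difference was in middle small intestine, from 4.77, 5.71 and 6.84 CPM in controls to 8.79, 8.77 and 7.70 CPM with imeglimin (0.55 ± 0.16, adjusted p = 0.148). DESeq2 called this difference (DESeq2 adjusted p = 0.0323). Part of Nanp, 9.81% of its exon bases, overlaps Ninl on the same strand.

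Counted over the 6 tested members, metformin gave 1 higher and 0 lower in proximal (Slc17a5), in middle (Slc17a5) and in distal small intestine (Renbp). The share of all genes past the threshold was 4.11%, 0.34% and 0.625% in these comparisons. Imeglimin gave 0 of 6 with edgeR in the same segments, where 1.16%, 0.0279% and 0.0219% of genes passed. At an unadjusted p under 0.05, imeglimin had 3, 3 and 2 of the 6 in proximal, middle and distal small intestine, against 2961, 3230 and 1877 of all genes. DESeq2 called 1, 3 and 1 of the 6 there, and 5.61%, 7.42% and 1.67% of all genes with an adjusted p.

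In the colon the counts were read against larger backgrounds. Acute metformin gave 1 higher (Nans) and 0 lower with 19.7% of genes called, and acute imeglimin 1 higher (Nans) and 2 lower (Gne and Slc17a5) with 33.3% called. Chronic metformin gave 0 higher and 1 lower (Slc17a5) with 19.7% of genes called, and chronic imeglimin 1 higher (Cmas) and 0 lower with 13% called. Without the third chronic colon control, edgeR called 0 of the 6 with either drug, where 11.1% of genes passed for metformin and 4.9% for imeglimin. The median log2 fold change of the 6 lay at 0.22, 0.24 and 0.16 with metformin and 0.25, 0.36 and 0.16 with imeglimin in proximal, middle and distal small intestine, where the median of all genes lay between -0.03 and 0.02. In colon the medians of the 6 were -0.00 (metformin) and -0.12 (imeglimin) in the acute and 0.02 and 0.03 in the chronic experiment.

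**Figure D3:**
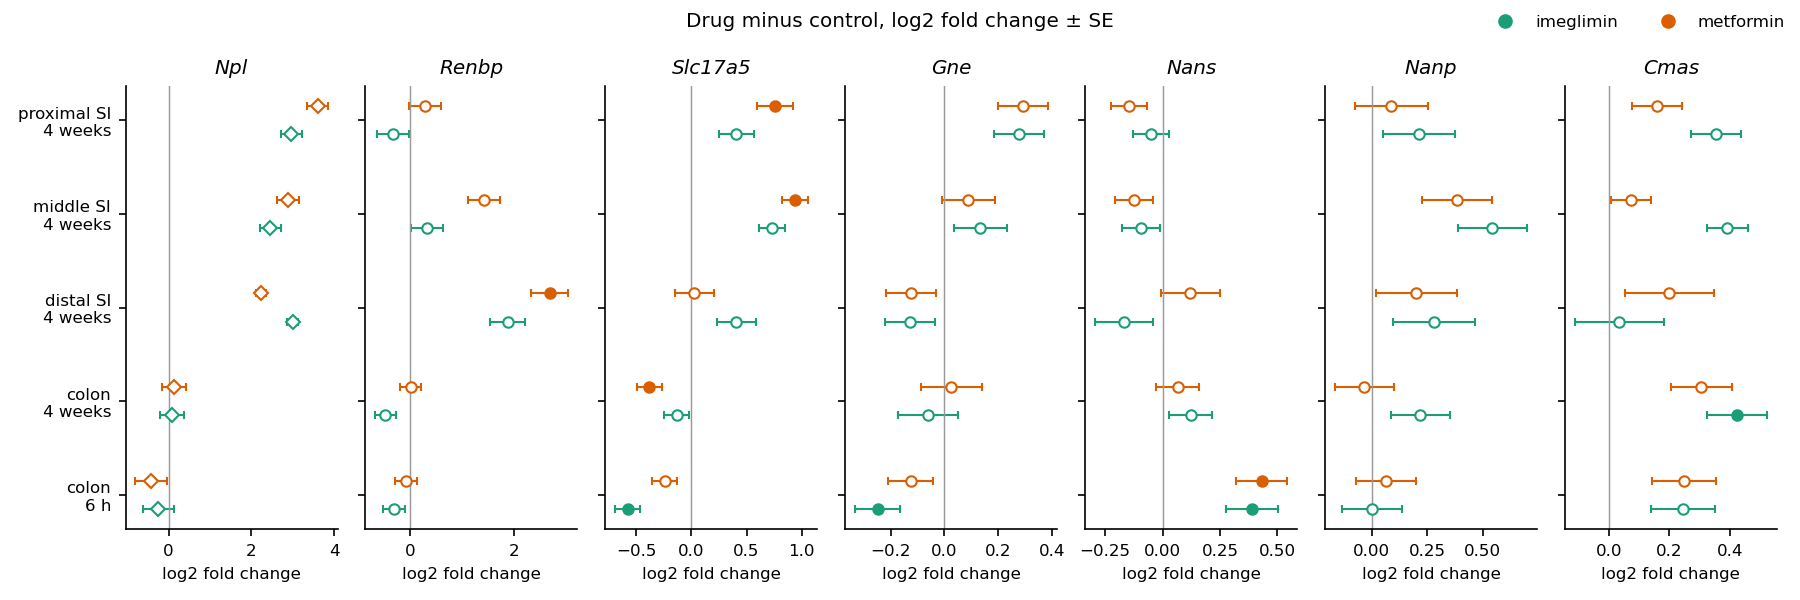
Log2 fold changes against control (± SE) of the 7 genes in 5 tissues, for metformin (orange) and imeglimin (green). Filled points passed the threshold, and the diamonds of Npl are open because it was not tested; the Npl values of the small intestine, from 2.23 to 3.60, lie apart from those of colon.

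The structurally related drugs were compared directly at the same dose and time in each of the 5 tissues. Npl was higher with metformin in proximal and middle small intestine and higher with imeglimin in distal small intestine. Imeglimin minus metformin was -0.63 (95% interval -1.12 to -0.14) in proximal, -0.43 (-0.97 to 0.11) in middle and 0.76 (0.48 to 1.05) in distal small intestine on the log2 scale. The libraries of the 2 drugs did not overlap in any of these segments. The difference was -0.05 ± 0.29 in chronic colon and 0.18 ± 0.38 in acute colon. As Npl was chosen on these data, its differences between the drugs are a description and were not tested.

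Of the 6 tested members, edgeR called 0 between the drugs in any tissue, over 30 gene and tissue pairs. The share of all genes called was 0.645% in acute and 0.611% in chronic colon, and 1.09% (proximal), 0% (middle) and 0.0494% (distal) along the small intestine. At an unadjusted p under 0.05 there were 1, 1, 2, 2 and 1 of the 6 in these tissues, in this order, against 3009, 3523, 2937, 2373 and 1465 of all genes. DESeq2 called Renbp and Cmas in middle small intestine, where it called 2.17% of genes. It called none of the 6 in acute colon (4.86% of genes), chronic colon (9.04%), proximal (5.88%) or distal small intestine (1.38%). For Renbp in middle small intestine the difference was -1.09 with a 95% interval of -1.78 to -0.41 (edgeR adjusted p = 0.247), and the libraries of the 2 drugs did not overlap. For Cmas there it was 0.32 with an interval of 0.17 to 0.47 (edgeR adjusted p = 0.191), again without overlap. For Slc17a5 it ran from -0.35 in proximal (interval -0.70 to -0.00) to 0.38 in distal small intestine (interval -0.02 to 0.78). Gne differed least, with differences between -0.12 and 0.04 in all 5 tissues, and the widest of its intervals ran from -0.34 to 0.16 in chronic colon. A difference that missed the threshold does not show that the drugs act alike.

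The differences of drug effects between neighbouring sites called few members. Colon minus distal small intestine called Renbp with each drug, as given above, where 2.09% of genes passed for metformin and 3.46% for imeglimin, and the added contrast of colon minus middle small intestine called Slc17a5 for metformin, where 3.79% passed. In the other 6 such contrasts edgeR called 0 of the 6 members. The shares of all genes called were 0.00499% (metformin, middle minus proximal), 0.269% (metformin, distal minus middle), 6.22% (metformin, chronic minus acute colon), 0% (imeglimin, middle minus proximal), 0% (imeglimin, distal minus middle) and 16.3% (imeglimin, chronic minus acute colon). The members at an unadjusted p under 0.05 were 1, 2, 1, 0, 2 and 1, and all genes at that level 1047, 2055, 4059, 882, 1925 and 5858. The nearest to the threshold were Slc17a5 for imeglimin between chronic and acute colon (0.47, adjusted p = 0.0543) and for metformin between distal and middle small intestine (-0.90 ± 0.22, adjusted p = 0.0969).

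Around these 7 genes, 48 others of the pathway were listed. They were sialidases with their lysosomal partners, the steps after Cmas, O-acetylation, and the supply and breakdown of hexosamines. Sialyltransferases of 3 linkages, Siglec receptors and an aldolase relative of Npl were also among the 48. In proximal small intestine metformin raised 3 and lowered 2 of the 42 that could be fitted, where 1.65% of all genes were called higher and 2.46% lower, and imeglimin changed 0. Metformin raised 1 of 43 in middle small intestine and imeglimin raised or lowered 0, and in distal small intestine neither drug changed any of 42, with 0.34% and 0.625% of all genes called for metformin and still fewer for imeglimin. In chronic colon metformin raised 5 and lowered 4 of 48 and imeglimin raised 3 and lowered 2, or 3 and 1, and 1 and 1, without the third control. Of all genes, 11.6% were called higher and 8.04% lower with metformin there, and 7.97% and 5.07% with imeglimin. In acute colon metformin raised 3 and lowered 2 of 44, against 11.3% and 8.37% of all genes, and imeglimin raised 2 and lowered 10, against 18.1% and 15.1%. In colon the calls in both directions together made up no larger a share of the pathway genes than of all genes.

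Ctsa, the cathepsin that protects and activates the lysosomal sialidase Neu1, rose with metformin in proximal and middle small intestine, as Slc17a5 did, and also in chronic colon, where Slc17a5 fell. In proximal small intestine Ctsa measured 115, 128 and 113 CPM in controls, 128, 146 and 143 CPM with imeglimin and 187, 187 and 208 CPM with metformin. The metformin libraries lay above all others, by 0.71 ± 0.08 over controls (adjusted p = 0.00475, kept in all 11 alternative settings), and imeglimin minus metformin was -0.48 (adjusted p = 0.0223, lost in 4 settings). In the middle segment it rose from 88.9, 98.5 and 107 to 161, 158 and 178 CPM (0.76 ± 0.10, adjusted p = 0.0224, lost in 5 settings). In chronic colon Ctsa measured 124, 122 and 115 CPM in controls and 158, 150 and 150 CPM with metformin (0.35 ± 0.06, adjusted p = 0.00510, or 0.0231 without the third control), and Neu1 rose by 0.70 (adjusted p = 0.00482, or 0.00923 without that control). Siae, which removes acetyl groups from sialic acid, rose in proximal small intestine from 42.6, 46.8 and 46.2 to 58.7, 58.0 and 66.4 CPM with metformin (0.43, adjusted p = 0.0251, lost in 3 settings). Siae fell in acute colon by 0.48 with metformin (adjusted p = 0.0234, lost in 5 settings) and by 0.71 with imeglimin (adjusted p = 0.00190). The other calls in proximal small intestine, named after their values were seen, were Neu1 (0.61, adjusted p = 0.0406), higher with metformin, and Cmah (-0.70, adjusted p = 0.0380) and the sialyltransferase St6gal1 (-0.62, adjusted p = 0.0418), lower. They were lost in 6, 7 and 5 of 11 settings, Cmah also with a replicate block (adjusted p = 0.0653).

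In chronic colon Gnpnat1, an acetyltransferase on the way to UDP-N-acetylglucosamine, and St8sia5, a sialyltransferase, passed with both drugs, whose comparisons share the controls. Gnpnat1 measured 70.1, 81.2 and 78.5 CPM in controls, 115, 117 and 109 CPM with imeglimin, and 108, 110 and 102 CPM with metformin. It rose by 0.57 with imeglimin (adjusted p = 0.00337) and 0.48 with metformin (adjusted p = 0.00212), and without the third control the p-values were 0.0184 and 0.00971. St8sia5 measured 12.8, 8.98 and 15.2 CPM in controls, 2.01, 1.06 and 3.12 CPM with imeglimin and 1.72, 2.95 and 3.32 CPM with metformin. In the acute colon controls and in every small intestinal library it was at 0 CPM, and no acute colon library exceeded 0.0598 CPM. Its level in untreated colon thus differed between the acute and chronic experiments, and the cause was not tested. St8sia5 fell by 2.58 and 2.21 on the log2 scale (adjusted p = 0.00466 and 0.00360), and without the third control the p-values were 0.0219 and 0.0165. In acute colon St3gal1, another sialyltransferase, rose with metformin from 26.9, 29.9 and 47.0 to 83.5, 62.1 and 64.0 CPM (1.01 ± 0.19, adjusted p = 0.00408). St3gal1 also rose with imeglimin there, to 62.2, 58.9 and 59.3 CPM (0.795, adjusted p = 0.00808), a call named after its values were seen. St8sia4 fell in acute colon by 0.99 with imeglimin (adjusted p = 0.00454).

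The summed level of markers of macrophages, a cell type known to take up and degrade glycoproteins, was lower with either drug in proximal small intestine and overlapped between drug and control in the middle and distal segments. The 10 markers of macrophages and monocytes summed to 168 to 180 CPM in proximal controls, 105 to 138 CPM with imeglimin and 109 to 116 CPM with metformin. Of these 10, 0 rose and 4 fell with metformin there, where 2.46% of all genes fell, and 0 rose and 2 fell with imeglimin, where 0.763% of all genes fell, and no marker was at 0. In middle small intestine the sums were 144 to 267 CPM in controls, 129 to 173 CPM with imeglimin and 125 to 268 CPM with metformin, and in distal small intestine 206 to 438, 189 to 642 and 186 to 400 CPM. In these segments 0 of 10 were called, which the low shares of all genes called there (0.0219% to 0.625%) would also give. The part of macrophages in the Npl levels was not tested. The shared list of colonocyte and enterocyte markers had 0 calls with either drug against control in the small intestine, with 8 or 9 of its 10 genes fitted. Between 0.0219% and 4.11% of all genes were called in these comparisons, shares that would also give 0. In bulk tissue fewer cells of a type and less RNA per cell cannot be told apart.

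**Figure D4:**
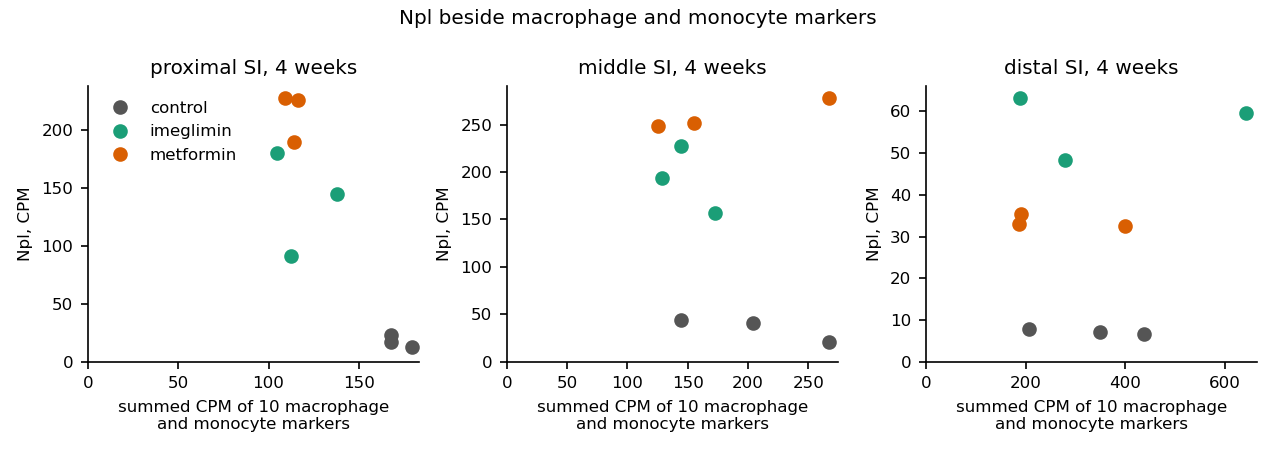
Npl (CPM) against the summed CPM of 10 macrophage and monocyte markers in the 27 libraries of the small intestine. Within each segment the drug libraries lie higher on the Npl axis than the controls, and in the proximal segment their marker sums (105 to 138 CPM) lie below those of the controls (168 to 180 CPM).

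Other lists moved in proximal small intestine with metformin, where Slc17a5, Ctsa, Siae and Neu1 rose. The 6 Paneth markers all fell, from sums of 3186 to 5682 CPM in controls to 1644 to 2058 CPM. Of the smooth muscle and pericyte markers 6 of 7 fell, of the fibroblast markers 4 of 7, of T and NK markers 3 of 8 and of B and plasma markers 2 of 8, and none of these lists had a marker that rose. Of all genes 2.46% fell in this comparison. In middle and distal small intestine no list of cell type markers had a call, and with 0.34% and 0.625% of all genes called for metformin this says nothing about the lists. In chronic colon with metformin, where Slc17a5 fell, 6 of 7 smooth muscle and 5 of 7 fibroblast markers fell and 3 of 8 goblet markers rose, or 3, 4 and 2 without the third control. Also with metformin there, 5 of 9 enteroendocrine markers fell, 3 of 10 colonocyte markers rose and 1 fell, and 2 of 8 cycling epithelium markers rose, numbers that were the same without that control. With imeglimin in chronic colon, where Cmas, Gnpnat1 and St8sia5 were called, 3 of 7 fibroblast markers fell and 2 of 8 goblet markers rose, or 3 and 1 without that control. Of all genes in chronic colon, 11.6% rose and 8.04% fell with metformin, and 7.97% rose and 5.07% fell with imeglimin. Without the third control, 11.1% of all genes with metformin and 4.9% with imeglimin were called in either direction. In acute colon with imeglimin, 4 of 8 endothelial and 2 of 7 fibroblast markers fell and 2 of 8 goblet markers rose, against 15.1% of all genes lower and 18.1% higher. The part of these shifts in the results for proximal small intestine and colon was not tested.

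Among the 8 genes whose pattern was most like that of Npl across the 45 libraries were Uap1l1 (r = 0.952), Lipe (0.942), Rnf208, Rab30, Man1a and Igsf23 (0.940 each) and Ptgr1 (0.939). The measure was Pearson's r of log2(CPM + 1) among 16263 genes kept in all tables. It follows the difference between small intestine and colon, which all the libraries share. By Spearman's rho, 2 of the 8 were among the 8 most like Npl. By deviations from the group means, which leave out segment and drug, the 8 most like Npl were Prxl2a (0.644), Oplah (0.637), Adh1 (0.635), Gm40278 (0.625), Ankrd46 (0.624), Tor1b (0.620), TrnE (0.619) and Efhd1 (0.613), and none was among the first 8. Of the other members, Nans (-0.904), Gne (-0.877) and Cmas (-0.834) ran against Npl over the 45 libraries. Slc17a5 (0.355), Renbp (0.0712) and Nanp (-0.257) had low values. By deviations from the group means Nans stood at -0.116, Gne at -0.0606 and Cmas at 0.103, so they did not run against Npl there. Slc17a5 stood at 0.123, Renbp at -0.0274 and Nanp at 0.404 by that measure.

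In single cells of colon, where bulk Npl was near 1 CPM, Npl molecules were found mainly in macrophage-like and dendritic-like cells. The assay, 10x Fixed RNA Profiling, reads transcripts by probes in formaldehyde-fixed cells, and molecules are counted by unique identifiers (UMIs). The 3 matrices, named CT, Ime and Met, belong to 1 sample whose title says control and whose treatment label lists all treatments. Only its name ties a matrix to a drug, and there are no replicates and no tests. They held 8001, 4732 and 12928 cell barcodes, of which 8000, 4729 and 12922 passed at least 300 genes and under 20% mitochondrial UMIs, with medians of 2342.5, 1355 and 5498.5 UMIs. No full barcode was shared by 2 matrices, but their first 16 bases were shared by 625, 1686 and 1007 barcodes in the 3 pairs. The 25332 cells left after doublet removal formed 40 clusters, clustered without the 7 genes, and 7 clusters with 5469 cells stayed unnamed.

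Npl had 463 UMIs in all. The macrophage and monocyte-like cluster, 648 cells led by Cd163, F13a1, Mrc1, Stab1 and Csf1r, held 170 of them, or 92.7 CPM of the summed cluster (95% Poisson interval 79.3 to 108, counting error only). A UMI of Npl was found in 21.3% of these cells at a median depth of 1560 UMIs, against 0.839% of colonocyte-like cells at a median of 15337 UMIs. The colonocyte-like class was a single cluster, with 53 cells from CT, 30 from Ime and 1944 from Met, so its levels here and below are mainly those of Met. Unnamed clusters of 1336 and 465 cells also scored highest for the colonocyte list and are not in the class. A dendritic-like cluster of 814 cells held 113 UMIs, or 42.4 CPM (34.9 to 51.0), in 10.6% of cells. The scores of this cluster for dendritic (4.37) and macrophage (4.34) markers were nearly equal, and where other settings split it the dendritic-like class fell to between 11.4 and 12.6 CPM. T and NK-like cells had 5.83 CPM, and the epithelial classes had 0.395 (colonocyte-like), 0.392 (goblet-like), 0.311 (cycling), 0.123 (enteroendocrine-like) and 0.630 (tuft-like, 2 UMIs in 98 cells). Adipocyte-like cells had 0 UMIs of Npl in 72 cells, with an interval up to 16.5 CPM.

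Renbp followed the same order at the top and extended to the stroma. It stood at 154 CPM (137 to 173) in macrophage and monocyte-like cells, 82.5 in the dendritic-like cluster, 74.0 in interstitial cell of Cajal-like, 50.7 in fibroblast-like and 31.3 in endothelial-like cells, against 0.966 in colonocyte-like cells. Slc17a5 was found in all classes with more than 72 cells, from 9.41 (T and NK-like) to 26.2 (macrophage and monocyte-like) CPM, and the 72 adipocyte-like cells held 0 UMIs, which allows up to 16.5 CPM. Among the named classes, each summed over its clusters, the synthesis genes were highest in cycling epithelium: Gne at 547, Nans at 829, Nanp at 25.5 and Cmas at 658 CPM, against 149, 111, 1.98 and 433 in colonocyte-like cells. Single clusters exceeded it: a goblet-like cluster of 1402 cells had Gne at 654 and Nanp at 29.0 CPM, and unnamed clusters had Gne at 573 (668 cells) and Cmas at 756 CPM (1507 cells). The goblet-like class was mixed, with Gne at 174 and 99.9 CPM in its other clusters. Probes differ between genes, so these levels compare classes and not genes.

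**Figure D5:**
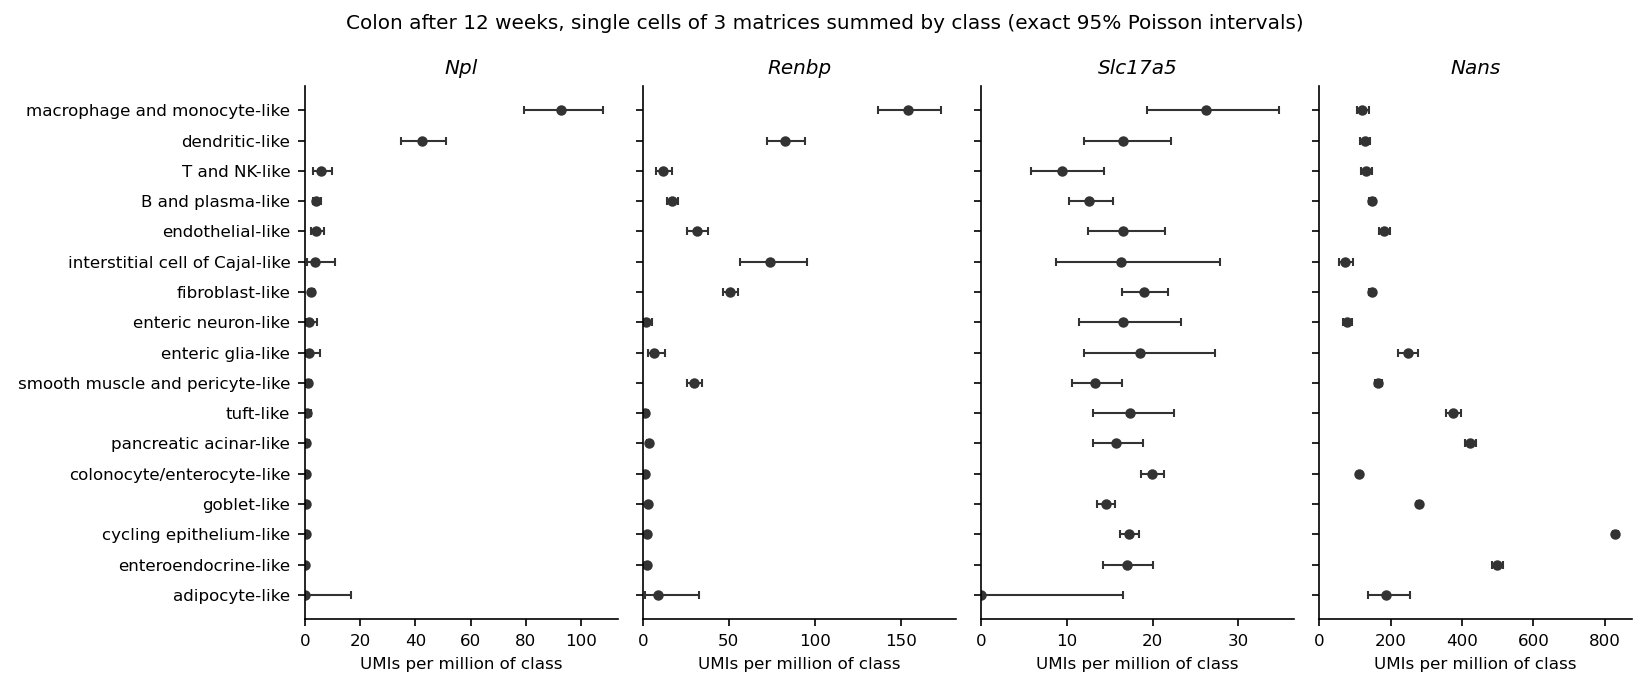
UMI CPM of each summed cell class (all 3 matrices together, bars are exact 95% Poisson intervals for counting error) for Npl, Renbp, Slc17a5 and Nans in colon. Npl and Renbp are highest in macrophage and monocyte-like cells (92.7 and 154 CPM) and Nans in cycling epithelium (829 CPM).

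Between the 3 matrices, Npl in macrophage and monocyte-like cells was 148 (101 to 209) CPM in CT, 158 (90.1 to 256) in Ime and 80.5 (66.9 to 96.2) in Met, where the Ime value rested on 16 UMIs. A difference was described only past a ratio of 2 with at least 30 UMIs on each side, which 6 of 108 pairs of matrices met over all members and classes. For Renbp these were macrophage and monocyte-like cells, 325 in Ime and 133 in Met, fibroblast-like cells, 99.2 in Ime and 43.2 in Met, and smooth muscle and pericyte-like cells, 49.0 in CT and 23.5 in Met. For Nans they were endothelial-like cells, 252 in Ime and 102 in CT, and fibroblast-like cells, 156 in Met and 78.1 in CT, and for Cmas interstitial cell of Cajal-like cells, 441 in Ime and 187 in Met. Median UMIs per cell differed too, for example 728 in Ime and 2577 in Met for the macrophages, and the part of depth in these ratios was not tested. The 5 genes most like Npl over the 40 clusters were Ms4a4a (r = 0.805), Dok2 (0.799), Itgam (0.797), Rasgrp4 (0.795) and Nxpe5 (0.794), on log2(CPM + 1) of cluster sums.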

How the data were processed

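Bulk RNA came from RNeasy columns and was sequenced from TruSeq Stranded mRNA libraries, per the labels' protocols. Bulk values are raw read counts by gene symbol, which the authors deposited as 5 tables, each with 9 libraries. Tools listed in the submitters' processing notes are Cell Ranger, StringTie, HISAT2, Trimmomatic and FastQC, and builds GRCm39 and mm10, with no roles given. The single-cell UMI counts were deposited as 3 matrices whose headers name Cell Ranger 9.0.0.

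Gene counts were tested with the quasi-likelihood F test of edgeR 4.0.16 in R 4.3.3, with TMM scaling, filterByExpr and 1 fit per table of 9 libraries (17295 to 18665 genes), called at an adjusted p of 0.05. Comparisons across tables used joint fits of 36 chronic libraries (20053 genes) or 18 colon libraries (19369 genes). The test was checked on simulated counts. The members, gene lists and tests were chosen with earlier results of these data known. Named genes were the 7 members, up to 2 pathway genes with the smallest p per comparison, and the genes most like Npl. Of the 8 most like it over all libraries, 1 is not reported here. Replicate pairs differed by more than sampling noise (chi-square of 12.4 to 177 per gene). No column was left unused. Exon lengths and overlaps came from GENCODE M21.

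The batch label equals the replicate number, so by this label the numbers pair the libraries. The deviations of same-numbered libraries correlated at -0.12 to 0.0642 on average in a table, and 8 of 45 same-numbered pairs lay over 0.1. Alternatives were RLE scaling, no filter beyond 1 read, the replicate block, DESeq2 1.42.0, only the 2 groups compared, and each library left out in turn. Comparisons without the third chronic colon control, a replicate block across the chronic tables, the contrast of colon with middle small intestine and the motif CACGTG were added after seeing the data.

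Cells were clustered with scanpy 1.11.5 (2000 variable genes, 30 components, Leiden resolution 1) and doublets called with Scrublet, which marked 319 cells in CT and 0 in Ime and Met, where it did not work. Clusters were named where at least 3 markers of the best list had a log2 fold over 1 and the mean of that list was over 1. A cluster of low depth with no marker of that list among its top genes stayed unnamed. So did a cluster with more markers of another list among its top genes. These limits were set for this work. Levels are CPM of the UMI counts summed over a class.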

Additional observations from a re-analysis of the deposited data

Results flagged for a closer look

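In these results an effect differed between tissues by a test, or pointed in opposite directions in different tissues. Of these, 3 were tested as interaction terms: for Renbp, chronic colon minus distal small intestine was -2.66 for the metformin effect and -2.35 for the imeglimin effect on the log2 scale, and for Slc17a5, chronic colon minus middle small intestine was -1.32 for the metformin effect. The tests are given in the text above.

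In the others the libraries of the compared groups did not overlap in either tissue, and the direction was opposite. The difference was not tested here in this form. How many of all genes met this rule was not counted, so it gives no result about the members. For Npl, imeglimin minus metformin in distal small intestine exceeded that in proximal small intestine by 1.39 and that in middle small intestine by 1.19 on the log2 scale. For Gne the metformin effect in proximal small intestine exceeded that in acute colon by 0.42, though edgeR called neither effect (adjusted p = 0.0997 and 0.315). For Slc17a5 the metformin effect in chronic colon less that in proximal small intestine was -1.14, and the imeglimin effect in middle small intestine exceeded that in acute colon by 1.31. For Slc17a5 imeglimin minus metformin was larger in distal small intestine than in acute colon by 0.72, and larger in chronic colon than in acute colon by 0.58. None of these differences between the drugs was called, nor was the imeglimin effect on Slc17a5 in middle small intestine with edgeR.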

How the results depend on the processing

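Of the alternatives run, none turned a called value of the 6 tested members or of a named pathway gene to the other sign. Npl kept its sign against control in all 11 settings of each small intestinal comparison (log2 fold changes of 3.42 to 3.83, 2.62 to 3.07 and 2.18 to 2.30 with metformin, and 2.73 to 3.20, 2.19 to 2.64 and 2.90 to 3.1 with imeglimin, in proximal, middle and distal segments). Of the colon values of Npl, metformin in acute colon kept its sign in all 11 and the other 5 comparisons changed it in at least 1. The number of the 6 members past the threshold changed with the setting. With a replicate block, the pairing that the batch label gives, it was 0 with metformin in proximal, middle and distal small intestine and in chronic colon, and it changed no other such count by over 1.5 times. With DESeq2 it was 2 (metformin) and 1 (imeglimin) in proximal, 2 and 3 in middle, 2 between the drugs in middle and 1 (imeglimin) in distal small intestine, and 2 (metformin) in chronic colon, and in the same order DESeq2 called 10.7%, 5.61%, 3.01%, 7.42%, 2.17%, 1.67% and 27.1% of all genes with an adjusted p. With only the 2 groups compared it was 0 for metformin in distal small intestine. Leaving out 1 library gave 0 to 1 with metformin in acute colon, in each small intestinal segment and in chronic colon, 0 to 1 with imeglimin in proximal small intestine and chronic colon, and 1 to 3 with imeglimin in acute colon. With treatment and number as a replicate block across the chronic tables, added after the data were seen, no member lost a call between tables, and Renbp gained one for metformin in colon minus middle small intestine. The cause of these changes was not tested.

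In single cells the macrophage and monocyte-like level of Npl was 76.4 CPM with at least 600 genes per cell. The dendritic-like level was 11.4 with doublets kept, 12.0 at Leiden resolution 2 and 12.6 with at least 600 genes, settings in which that cluster was split. Counts of all genes past the threshold, from the lowest to the highest over the alternatives, were 2169 to 4471 (3607 in the reported fit), 4004 to 6839 (6085) and 0 to 733 (118) in acute colon for metformin, imeglimin and the 2 drugs compared. They were 52 to 1527 (710), 9 to 819 (200) and 0 to 819 (189) in proximal, 2 to 475 (61), 1 to 940 (5) and 0 to 312 (0) in middle and 8 to 960 (114), 1 to 274 (4) and 0 to 222 (9) in distal small intestine. In chronic colon they were 2066 to 4565 (3669), 932 to 3353 (2433) and 11 to 1292 (114). DESeq2 gave the highest of these counts in each comparison except imeglimin in acute colon, where the fit of only the 2 groups did. Npl in colon rested on few counts, from 15 per library, so small differences there were not detectable at this depth.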

Other observations

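The 9 listed genes of hexosamine metabolism include enzymes that supply hexosamines, the raw material of sialic acid. They also include enzymes that break hexosamines down, such as Gnpda1 and Gnpda2, so counts and medians give no direction of supply. In acute colon with imeglimin 1 of the 9 rose and 5 fell, where 18.1% of all genes were called higher and 15.1% lower. The median log2 fold change of the 9 was -0.29, against -0.03 for all genes. With metformin in acute colon 1 rose and 1 fell (11.3% and 8.37% of all genes), with a median of -0.11 against -0.04. In chronic colon 3 of 9 rose with metformin and 2 with imeglimin and none fell, where 11.6% and 7.97% of all genes were called higher, with medians of 0.27 and 0.27 against -0.05 and -0.02 for all genes. Without the third control 1 of 9 rose with each drug. The genes of this list named here were chosen after their values were seen. Gnpnat1 was lower with imeglimin at 6 h (means of 90.3 against 118 CPM, -0.39, edgeR adjusted p = 0.0137) and higher after 4 weeks (114 against 76.6 CPM). Pgm3, the mutase after Gnpnat1, measured 33.4 against 44.0 CPM (-0.40, edgeR adjusted p = 0.0295, or 0.0552 with a replicate block) and 36.2 against 29.3 CPM (0.31, edgeR adjusted p = 0.0478, or 0.178 without the third control). Gnpda1, a deaminase that returns glucosamine phosphate to glycolysis, rose at 6 h with imeglimin (0.56, edgeR adjusted p = 0.0105) and with metformin (0.51, edgeR adjusted p = 0.0246), and Gnpda2, its relative, fell (-0.53, edgeR adjusted p = 0.0115, and -0.47, edgeR adjusted p = 0.0317). Both metformin calls were lost in 4 of 11 alternative settings. In acute colon with imeglimin the calls of Gnpda1, Amdhd2 and Gnpnat1 were kept in all 11, Gnpda2 in 10, Pgm3 in 5 and Nagk in 2. Both drugs were compared with the same controls, and differences between the 2 experiments in these genes were not tested.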
